A study of Homo sapiens with 8 samples.

Results

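Gene expression in PNT2 cells labelled *ERF* KD was compared to that in parental PNT2 cells (WT). The 4 libraries of this comparison, 2 per group (replicates A and B), were chosen by their genotype labels from a series of 8 libraries of PNT2, an immortalized line of human prostate epithelial cells. The other 4 libraries, 2 labelled *CIC* KO and 2 labelled as a *CIC*-*ERF* codeletion (*ERF* KD + *CIC* KO in the study's terms), entered the same fit and are used here only to ask whether a change was also seen there. In the study, *ERF* KD was made with short hairpin RNAs and puromycin selection, *CIC* KO with guide RNAs and blasticidin selection, and the double line by both methods. The WT group carried no label of a hairpin, a guide or a drug. The labels do not say whether A and B are separate cultures, or different hairpins or guides, and the sources do not say whether a line is a clone or a pool. The p-values given here therefore measure the spread between these libraries, which may be technical.

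The labels of the single-loss libraries need care. The deposited file of each library labelled *ERF* KD carries the letter C in its name where the sample title carries the letter E, and the libraries labelled *CIC* KO carry the opposite pair. *ERF* (chr19:42247572-42255157, minus strand, GRCh38), the gene the label names as silenced, was at 55.8 and 55.9 CPM (counts scaled to library size) in WT replicates A and B and at 81.2 and 77.8 CPM in the libraries labelled *ERF* KD. Both labelled *ERF* KD libraries were thus above both WT libraries, and the log2 fold change of 0.51 did not pass the test (SE 0.201, adjusted p = 0.161). *ERF* was at 18.8 and 11.7 CPM in the libraries labelled *CIC* KO and at 11.6 and 10.4 CPM in *ERF* KD + *CIC* KO. *ERF* mRNA was therefore not low where the label says that it was silenced, and the group is called the libraries labelled *ERF* KD throughout. *CIC* (chr19:42268537-42295797, plus strand) was at 128 and 129 CPM in WT and at 109 CPM in both libraries labelled *ERF* KD, which did not pass the test (log2 fold change -0.24, SE 0.155, adjusted p = 0.384). *CIC* was at 132 and 131 CPM in the libraries labelled *CIC* KO and at 90.9 and 66.4 CPM in *ERF* KD + *CIC* KO. The difference of the latter from WT passed only with the replicate letter as a block (log2 fold change -0.71, adjusted p = 0.122 without and 0.0399 with the block). A guide RNA edits DNA and need not change the mRNA level, so *CIC* mRNA does not check the label. The directions given below belong to the libraries as labelled.

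*ERF* and *CIC* are transcriptional repressors held in check by ERK signalling. *ERF* competes for ETS sites with activating ETS factors, whereas *CIC* binds a short octamer and represses the PEA3 factors *ETV1*, *ETV4* and *ETV5* together with feedback inhibitors of the MAPK pathway. Epithelial cells are joined by adherens junctions, desmosomes and tight junctions, and their identity is kept by factors of the GRHL and OVOL families and the splicing regulators *ESRP1* and *ESRP2*. The ZEB, SNAIL and TWIST factors repress that programme during epithelial-mesenchymal transition (EMT), in which E-cadherin gives way to N-cadherin and vimentin.

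Of 14653 genes tested, 587 (4.01%) rose and 890 (6.07%) fell in the libraries labelled *ERF* KD compared to WT at an adjusted p under 0.05 by edgeR's quasi-likelihood test, 10.1% in either direction. With the replicate letter as a block, 1230 (8.39%) rose and 1441 (9.83%) fell, and the same 1477 genes were among them. The decreases were the larger changes: the median log2 fold change was -1.88 among the genes that fell and 1.03 among those that rose, and 230 genes fell and 42 rose by a fitted change of more than 8-fold. Among all genes called, 62 that fell and 7 that rose had both libraries of a group at 3 counts or under, where a fitted fold depends on the prior count. The median over all genes tested was 0.01. Libraries of the groups did not overlap for 28.3% of all genes tested in the upward direction (4146 genes) and 28% in the downward direction (4098 genes), so an absence of overlap is common here and is given below only as a description of the values. All 1477 called genes had libraries that did not overlap. Leaving out 1 library lowered the number of called genes to between 620 and 963, the lowest without WT replicate A (152 higher, 468 lower), followed by 659 without WT replicate B, 907 without *ERF* KD replicate B and 963 without *ERF* KD replicate A.

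**Figure D1:**
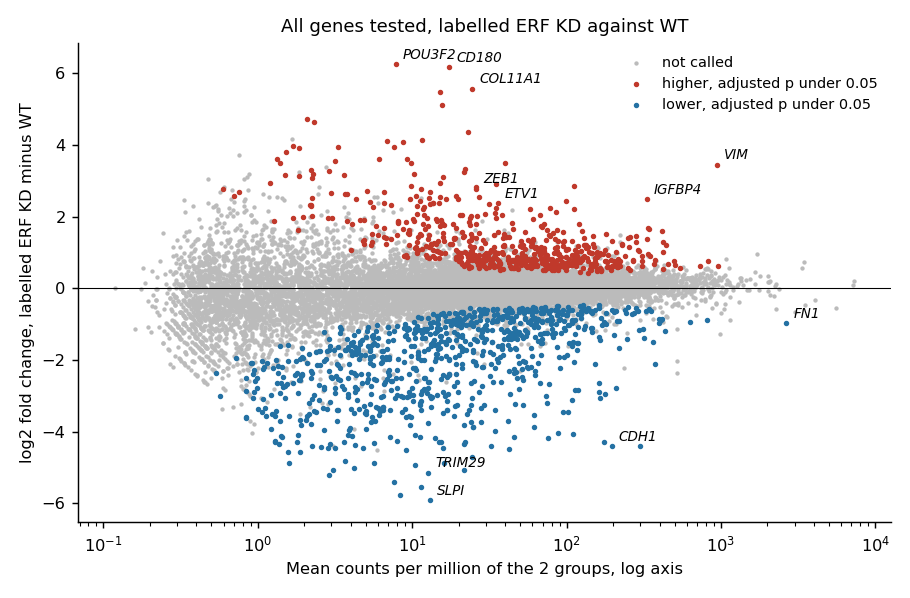
Log2 fold change of the libraries labelled *ERF* KD over WT (vertical axis) against mean CPM on a log axis (horizontal axis) for each gene tested, with genes called higher and lower in colour. Genes with both libraries of a group at 3 counts or under are not drawn (201 of 14653), and the called genes that are drawn run from -5.92 for *SLPI* to 6.25 for *POU3F2*.

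Of 10 genes widely described as repressed by *CIC*, 5 rose and none fell, and the median log2 fold change of the list was 0.98 against 0.01 over all genes tested. With the replicate block 7 rose. *ETV1* (chr7:13891228-13991425, minus strand), an ETS activator and oncogene in prostate cancer, was at 11.4 and 11.7 CPM in WT and at 70.7 and 49.4 CPM in the libraries labelled *ERF* KD, without overlap (log2 fold change 2.38, SE 0.201, adjusted p = 0.0003). Its level in the libraries labelled *CIC* KO, 11.8 and 11.4 CPM, was that of WT. *ETV5*, a related activator, was at 21.8 and 28.1 CPM in WT and at 109 and 82.6 CPM in the libraries labelled *ERF* KD (log2 fold change 1.95, adjusted p = 0.000717). *ETV4*, the remaining PEA3 factor, was at 17.4 and 23.5 CPM in WT and at 65.5 and 51 CPM in the libraries labelled *ERF* KD (log2 fold change 1.51, adjusted p = 0.00369). For these 3 genes both labelled *ERF* KD libraries were above both WT libraries, and the calls remained when any 1 library was left out. By quantitative PCR in PNT2 cells the study reports higher *ETV1*, *ETV4* and *ETV5* after *CIC* KO. After *ERF* KD it reports a rise of *ETV1* but not of *ETV4* or *ETV5*. In the libraries labelled *CIC* KO none of the 3 passed against WT here (log2 fold changes 0.01, 0.22 and 0.41). The pattern under these labels thus differs from that of the study, and the cause was not tested.

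The feedback inhibitors in this list changed less than the PEA3 factors and not all passed. *SPRY2*, an inhibitor of receptor tyrosine kinase signalling, was at 17.9 and 17.2 CPM in WT and at 33.8 and 32.9 CPM in the libraries labelled *ERF* KD (log2 fold change 0.93, adjusted p = 0.00803). *SPRED1*, which restrains RAS activation, was at 38.9 and 34.1 CPM in WT and at 54.7 and 60 CPM in the libraries labelled *ERF* KD (log2 fold change 0.65, adjusted p = 0.0401). Neither call is firm, since *SPRY2* lost its call without either WT library (adjusted p up to 0.0743) and *SPRED1* without any 1 library (up to 0.238). *DUSP6*, a phosphatase of ERK, was at 4.99 and 9.58 CPM in WT and at 14.8 and 17 CPM in the libraries labelled *ERF* KD, and *SPRY4* at 6.98 and 11.6 CPM and at 14.6 and 23.4 CPM. Both passed only with the replicate block (adjusted p = 0.113 and 0.023 for *DUSP6*, 0.0839 and 0.0323 for *SPRY4*, without and with the block). The log2 fold changes of *DUSP4* (0.16), *DUSP5* (-0.01) and *SPRED2* (0.10) did not pass either fit. Without WT replicate A or without WT replicate B, 3 of the 10 genes were called, and without either labelled *ERF* KD library 4.

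**Figure D2:**
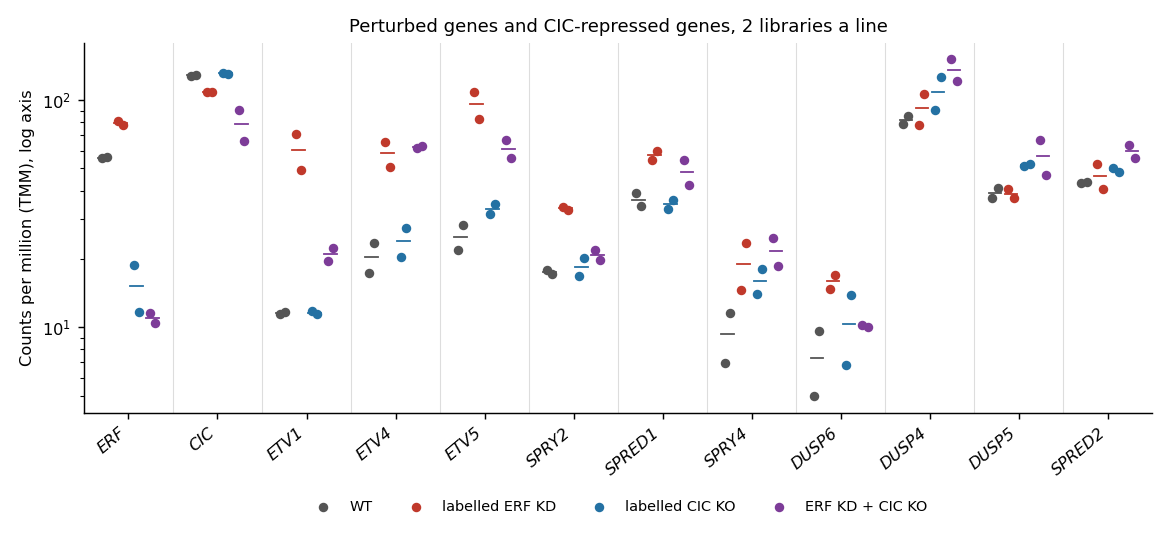
CPM on a log axis in each of the 8 libraries (points, 2 per line, with a bar at the mean) for *ERF*, *CIC* and the 10 genes described as repressed by *CIC*. *ERF* lies near 80 CPM in the libraries labelled *ERF* KD and under 20 CPM in those labelled *CIC* KO, and *ETV1*, *ETV4* and *ETV5* lie above WT in the libraries labelled *ERF* KD.

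Promoter sequence was available for 6 of these 10 genes, as RefSeq windows of 300 bases (GRCh38.p14, 250 bases before to 50 after the start). The octamer that *CIC* is known to bind was searched on both strands in the forms TGAATGAA, TGAATGGA, TCAATGAA and TCAATGGA. Of the 6 windows only that of *DUSP6* (chr12:89352452-89352751, minus strand) held it, in 2 copies read as TCCATTGA that begin at -24 and 2 from the start. The window of *ETV1* was among the 6 and held none. The study places the form TGAATGGA in a regulatory element just upstream of *ETV1*. It reports *CIC* there in PNT2 cells by chromatin immunoprecipitation and PCR. A site outside the 300 bases searched would not be seen here. The *DUSP6* window is shown, 5′ to 3′, since it is the only one of the 6 with the octamer, with the octamers in capitals.

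DUSP6: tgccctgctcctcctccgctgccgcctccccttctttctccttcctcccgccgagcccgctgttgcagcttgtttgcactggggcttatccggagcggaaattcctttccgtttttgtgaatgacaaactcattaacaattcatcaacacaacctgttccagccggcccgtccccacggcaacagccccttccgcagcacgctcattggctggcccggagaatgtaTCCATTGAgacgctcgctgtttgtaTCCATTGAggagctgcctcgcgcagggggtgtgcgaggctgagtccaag

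The octamer was found in 2.61% of the 10869 tested genes with a promoter window and in 3.86% of all 27305 windows. It was found in 2.8% of the windows of genes that rose (465 of 587 had one) and in 2.56% of those of genes that fell (626 of 890). A match is a description of the letters and says nothing of binding in these cells.

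Among 14 other ETS factors tested, 1 rose and 4 fell (35.7% called, against 10.1% of all genes). *FLI1* was at 5.37 and 8.41 CPM in WT and at 20.7 and 27.9 CPM in the libraries labelled *ERF* KD (log2 fold change 1.82, adjusted p = 0.00457), a call that was lost with length-scaled counts and with limma on TPM. The genes that fell included *EHF* and *ELF3*, ETS factors of epithelial cells. *EHF* was at 5.03 and 9.64 CPM in WT and at 0.48 and 0.447 CPM in the libraries labelled *ERF* KD (log2 fold change -3.96, adjusted p = 0.00511). *ELF3* was at 105 and 88.7 CPM in WT and at 33.9 and 8.49 CPM (log2 fold change -2.19, adjusted p = 0.0378). *ETS2* and *ELF1* fell by 0.94 and by 0.62 on the log2 scale. The groups did not overlap for any of the 5, but *ELF3* lost its call without either WT library (adjusted p up to 0.135), *ETS2* without WT replicate B or either labelled *ERF* KD library (up to 0.0759), and *ELF1* without either WT library or *ERF* KD replicate B (up to 0.132).

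Of 11 adherens junction genes tested, 7 fell and none rose (median log2 fold change -1.45), against a background of 6.07% of all genes. *CDH1* (chr16:68737225-68835548, plus strand), which encodes E-cadherin, was at 362 and 385 CPM in WT and at 17.6 CPM in both libraries labelled *ERF* KD. Neither labelled *ERF* KD library came near the WT range, and the level was 21.2-fold lower (log2 fold change -4.41, SE 0.148, adjusted p = 1.27e-05). *EPCAM*, an epithelial adhesion molecule, was at 278 and 314 CPM in WT and at 41.1 and 29.4 CPM in the libraries labelled *ERF* KD (log2 fold change -3.07, adjusted p = 9.31e-05). *CDH3*, which encodes P-cadherin, was at 283 and 349 CPM and at 51.7 and 30 CPM (log2 fold change -2.95, adjusted p = 0.000315). The cytoplasmic catenins did not share this change: *CTNNA1* was at 629 and 604 CPM in WT and 671 and 616 CPM in the libraries labelled *ERF* KD, and *CTNNB1* at 608 and 663 CPM and at 631 and 549 CPM, with libraries that overlapped in both cases. *JUP*, which encodes plakoglobin and serves both adherens junctions and desmosomes, fell by 2.06 on the log2 scale (adjusted p = 0.0014). Leaving out any 1 library left 6 or 7 of the 11 called.

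Tight junction genes gave 9 of 12 lower and none higher (75.0% called, against 10.1% of all genes), with a median log2 fold change of -1.89. *CLDN7*, a claudin of simple epithelia, was at 123 and 165 CPM in WT and at 7.2 and 8.54 CPM in the libraries labelled *ERF* KD (log2 fold change -4.19, adjusted p = 3.47e-05). *MARVELD3*, a tetraspan protein of the junction, was at 48.3 and 41.8 CPM and at 4.03 and 2.73 CPM (log2 fold change -3.73, adjusted p = 0.000139). *CLDN4* was at 25.7 and 36.8 CPM and at 6.63 and 7.8 CPM (log2 fold change -2.11, adjusted p = 0.00071). Each group was separate from the other for these genes. *CLDN1*, at 99 and 107 CPM in WT and 84.9 and 106 CPM in the libraries labelled *ERF* KD, overlapped between the groups. Without 1 library 6 or 7 of the 12 remained past the threshold.

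Of 10 desmosome genes, 7 fell and none rose (70.0% called, against 10.1% of all genes, and a median log2 fold change of -1.45). *DSP*, which encodes desmoplakin and links the desmosome to keratin filaments, was at 610 and 603 CPM in WT and at 131 and 148 CPM in the libraries labelled *ERF* KD (log2 fold change -2.12, SE 0.152, adjusted p = 0.000139). *DSC2*, a desmosomal cadherin, was at 42.3 and 46.9 CPM and at 13.1 and 11.5 CPM (log2 fold change -1.86, adjusted p = 0.000214). *DSG3*, the desmosomal cadherin of basal keratinocytes, was at 9.69 and 8.77 CPM and at 1.06 and 0.546 CPM (log2 fold change -3.51, adjusted p = 0.00228). In each case both labelled *ERF* KD libraries lay below both WT libraries. *DSG3* and *DSC3* were also low in *ERF* KD + *CIC* KO, where *DSG3* was at 0.296 and 0.733 CPM and *DSC3* at 1.9 and 3.83 CPM, and their levels there did not differ detectably from those in the libraries labelled *ERF* KD (adjusted p = 0.453 and 0.944). Without any 1 library 5 of the 10 stayed past the threshold, and *DSC3*, which fell by 1.76 on the log2 scale, was not among them (adjusted p up to 0.0786).

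The hemidesmosome and laminin-332 genes, which attach epithelium to its basement membrane, gave 3 of 9 lower, none higher and a median of -0.99. The share called was 33.3%, against 10.1% of all genes, and their call depended on single libraries. *COL17A1* was at 74.3 and 151 CPM in WT and at 4.9 and 14.6 CPM in the libraries labelled *ERF* KD (log2 fold change -3.54, adjusted p = 0.0119). *LAMA3* was at 162 and 410 CPM and at 33.5 and 43.3 CPM (log2 fold change -2.90, adjusted p = 0.0388), and *LAMB3* at 114 and 281 CPM and at 20.1 and 34.9 CPM (log2 fold change -2.84, adjusted p = 0.0229). *COL17A1* lost its call without *ERF* KD replicate A (adjusted p = 0.0503), and *LAMA3* and *LAMB3* without WT replicate B or either labelled *ERF* KD library (up to 0.171 and 0.113). The groups did not overlap, and within each group replicate B was above replicate A for all 3 genes. With the block 5 of the 9 fell. Only 1 of the 9 remained called without WT replicate B, without *ERF* KD replicate A or without *ERF* KD replicate B, and 3 without WT replicate A.

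Keratins, the intermediate filaments of epithelium, gave 6 of 12 lower and none higher (median log2 fold change -1.31), and 10 of 12 lower with the replicate block. *KRT5*, a keratin of basal cells, was at 139 and 233 CPM in WT and at 15 and 19.2 CPM in the libraries labelled *ERF* KD (log2 fold change -3.45, adjusted p = 0.00857). *KRT16* was at 8.83 and 14.5 CPM and at 0.817 and 1.54 CPM (log2 fold change -3.31, adjusted p = 0.00302), and *KRT17* at 250 and 419 CPM and at 75.5 and 134 CPM (log2 fold change -1.68, adjusted p = 0.0199). *KRT14*, the partner of *KRT5*, was at 0.855 and 1.38 CPM in WT and at 3 counts or under in both libraries labelled *ERF* KD, at least 7.61-fold lower. Without *ERF* KD replicate A the calls of *KRT5* (adjusted p = 0.0567), *KRT17* and *KRT14* were lost, those of *KRT17* (up to 0.108) and *KRT14* (up to 0.0626) also without WT replicate B, and that of *KRT14* without *ERF* KD replicate B. The simple keratins stayed abundant. *KRT18* was at 976 and 1112 CPM in WT and at 533 and 608 CPM in the libraries labelled *ERF* KD (log2 fold change -0.87, adjusted p = 0.0155). *KRT8* was at 1320 and 1647 CPM and at 695 and 912 CPM, which passed only with the block (adjusted p = 0.0543 without and 0.000628 with it). *KRT7*, at 1098 and 1034 CPM and at 751 and 855 CPM, likewise passed only with the block (0.0935 and 0.0323). The number of keratins called fell to 1 without *ERF* KD replicate A, to 2 without WT replicate B, to 4 without WT replicate A and to 5 without *ERF* KD replicate B.

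The regulators of epithelial identity were the list with the largest share called among the 33 lists described (84.6%, against 10.1% of all genes). Of 13 tested genes 11 fell, none rose, and the median log2 fold change was -3.40. *ESRP1*, an epithelial splicing regulator, was at 208 and 206 CPM in WT and at 10.4 and 14.4 CPM in the libraries labelled *ERF* KD (log2 fold change -4.06, SE 0.195, adjusted p = 3.47e-05). *OVOL1* and *OVOL2* encode zinc finger repressors of EMT. *OVOL2* was at 15.1 CPM in both WT libraries and at 0.672 and 0.894 CPM in the libraries labelled *ERF* KD (log2 fold change -4.26, adjusted p = 5.43e-05), and *OVOL1* at 21.4 and 35.5 CPM and at 0.672 and 2.24 CPM (log2 fold change -4.29, adjusted p = 0.00116). *GRHL2*, a Grainyhead factor that activates *CDH1*, was at 178 and 167 CPM and at 14.1 and 17.6 CPM, a 10.9-fold lower level (log2 fold change -3.44, adjusted p = 3.47e-05). *ST14*, the membrane protease matriptase, was at 100 and 131 CPM and at 7.16 and 8.64 CPM (log2 fold change -3.87, adjusted p = 3.47e-05). None of these genes had overlapping groups. *KLF5*, at 88.2 and 95.2 CPM in WT and 65.3 and 46.2 CPM in the libraries labelled *ERF* KD, passed only with the block (adjusted p = 0.0626 without and 0.0156 with it). Between 10 and 12 of the 13 genes were called when 1 library was left out. Each of the 11 genes had a lower level there than in the *CIC* KO libraries and than in *ERF* KD + *CIC* KO, at an adjusted p under 0.05 for each difference.

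**Figure D3:**
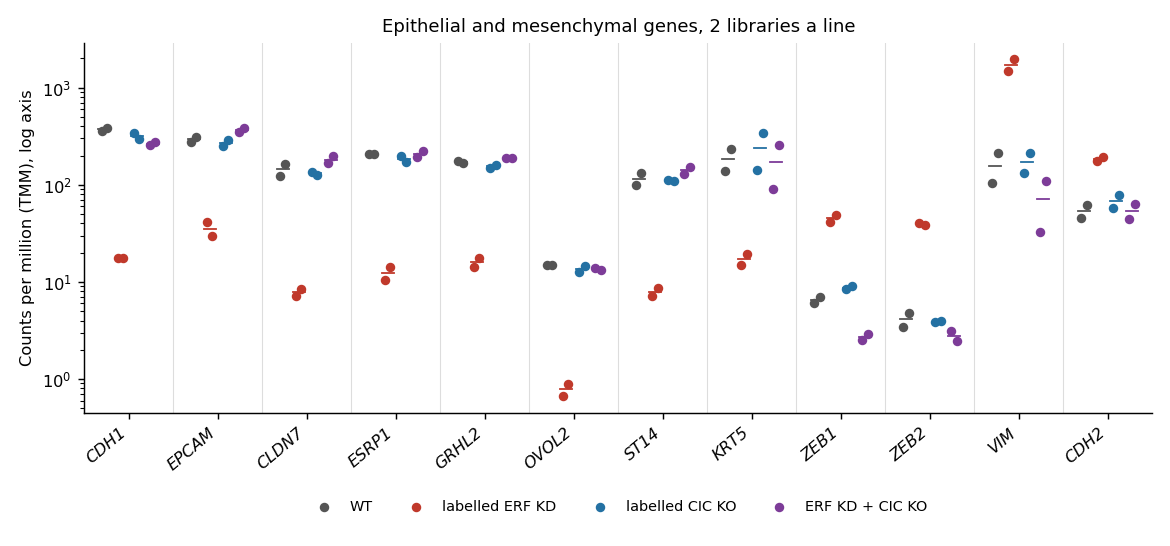
CPM on a log axis in each of the 8 libraries (points, 2 per line, with a bar at the mean) for 8 epithelial genes on the left and 4 EMT or mesenchymal genes on the right. The libraries labelled *ERF* KD lie below the other 6 libraries for all 8 epithelial genes and above them for *ZEB1*, *ZEB2*, *VIM* and *CDH2*.

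Of 7 EMT transcription factors tested, 3 rose and none fell (42.9% called, against 10.1% of all genes, and a median log2 fold change of 0.98). *ZEB1* (chr10:31318495-31529814, plus strand), a repressor of *CDH1*, was at 6.08 and 7.04 CPM in WT and at 41.1 and 49 CPM in the libraries labelled *ERF* KD, 6.86-fold higher (log2 fold change 2.78, SE 0.195, adjusted p = 0.000131). *ZEB2* (chr2:144364364-144524583, minus strand) was at 3.47 and 4.79 CPM and at 40.1 and 38.2 CPM, 9.48-fold higher (log2 fold change 3.24, SE 0.232, adjusted p = 0.000138). Both were well separated from WT and kept their calls without any 1 library. *TWIST1* was at 7.93 and 7.95 CPM in WT and at 20.2 and 17.1 CPM in the libraries labelled *ERF* KD (log2 fold change 1.23, adjusted p = 0.0307), and it lost its call without any 1 library (adjusted p up to 0.162). The SNAIL factors did not rise: *SNAI1* was near 1 CPM or under in all 4 libraries, and *SNAI2*, at 74.3 and 77 CPM in WT, was at 16.7 and 52.2 CPM in the libraries labelled *ERF* KD (log2 fold change -1.14, adjusted p = 0.162). *ZEB1* and *ZEB2* were also higher than in the libraries labelled *CIC* KO (log2 difference 2.37 and 3.32, adjusted p = 0.00023 and 0.000127) and than in *ERF* KD + *CIC* KO (4.05 and 3.80, adjusted p = 3.76e-05 and 8.11e-05).

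Of 9 mesenchymal genes tested, 2 rose and 1 fell (33.3% called, against 10.1% of all genes, and a median log2 fold change of 0.44). *VIM* (chr10:17228259-17237593, plus strand), which encodes the intermediate filament vimentin, was at 105 and 211 CPM in WT and at 1497 and 1953 CPM in the libraries labelled *ERF* KD, 10.9-fold higher (log2 fold change 3.45, SE 0.586, adjusted p = 0.00835, and 0.0578 without WT replicate A). *CDH2*, which encodes N-cadherin, was at 45.4 and 61.3 CPM and at 178 and 195 CPM (log2 fold change 1.81, adjusted p = 0.00258). The groups did not overlap for either gene. *FN1*, which encodes fibronectin and is often counted among mesenchymal genes, went the other way, from 3038 and 3948 CPM to 1587 and 1966 CPM (log2 fold change -0.98, adjusted p = 0.0247), a call that was lost without WT replicate B or either labelled *ERF* KD library (adjusted p up to 0.152). *TAGLN*, *MYL9* and *POSTN*, with log2 fold changes of 0.44, 0.71 and 1.08, and *ACTA2*, with -1.68, did not pass.

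Collagen and matrix genes gave 5 of 17 higher and none lower (median log2 fold change 0.95), against a background of 4.01%, and 8 higher and 1 lower with the replicate block. *COL12A1*, a collagen associated with fibrils, was at 248 and 166 CPM in WT and at 648 and 608 CPM in the libraries labelled *ERF* KD (log2 fold change 1.60, adjusted p = 0.00551). *VCAN*, the proteoglycan versican, was at 5.94 and 5.91 CPM and at 40.1 and 27.4 CPM (log2 fold change 2.51, adjusted p = 0.00288). Both genes kept the call without any 1 library. *COL3A1* and *COL5A2* rose by a less even amount, since *COL3A1* was at 9.89 CPM in *ERF* KD replicate A and at 1.79 CPM in replicate B against 0.427 and 0.561 CPM in WT (adjusted p = 0.0432), and *COL5A2* at 25.9 and 7.05 CPM against 2.66 and 3.16 CPM (adjusted p = 0.0477). Their calls were lost without either WT library or *ERF* KD replicate A (adjusted p up to 0.27 and 0.237). *FBN1* rose by 1.51 on the log2 scale and lost the call without either WT library or *ERF* KD replicate B (up to 0.198). Between 2 and 4 of the 17 were called higher without 1 library, the lowest count without WT replicate A.

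The matrix proteases and their inhibitors gave 2 of 13 lower and none higher (15.4% called, against 10.1% of all genes, and a median of 0.01). *MMP9*, a gelatinase, was at 2.23 and 7.34 CPM in WT and at 0.576 and 0.348 CPM in the libraries labelled *ERF* KD (log2 fold change -3.35, adjusted p = 0.0252), and *TIMP3* at 500 and 352 CPM and at 224 and 166 CPM (log2 fold change -1.13, adjusted p = 0.0383). Both calls depended on single libraries, *MMP9* on each except WT replicate A (adjusted p up to 0.151) and *TIMP3* on each of the 4 (up to 0.221).

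A further property was read from the promoter windows, since the ZEB and SNAIL factors are known to bind the E-box CACCTG. The hexamer was searched on both strands, as the octamer was above. It was found in 19% of windows of all tested genes and in 20.6% of the 27305 windows, 1 per gene symbol. It was found in 32.7% of the windows of genes that fell (205 of 626 genes) and in 16.1% of those of genes that rose. Of the 34 adherens junction, desmosome, tight junction and epithelial regulator genes that fell, 19 had a window, and 9 of these (47.4%) held the hexamer, namely *AFDN* (4 copies), *DSG2*, *DSP* and *RAB25* (2 each), and *CDS1*, *DSC2*, *NECTIN4*, *OCLN* and *TJP1* (1 each). Not all of these calls are firm. Those of *DSG2* and *OCLN* were lost with length-scaled counts, with limma on TPM and in the fit of only WT and the libraries labelled *ERF* KD. The call of *DSG2* was also lost without any 1 library, and that of *OCLN* without either WT library or *ERF* KD replicate B. Those of *NECTIN4* and *TJP1* were lost when 1 or more single libraries were left out. Promoters differ in base composition, with which any short word varies, and its part in these shares was not tested. No window was available for *CDH1*, *EPCAM*, *ESRP1*, *GRHL2* or *OVOL2*, which were among the 34. As for the octamer, a match says nothing of binding in these cells. The ETS core CCGGAA was found in 28.7% of windows of all tested genes, in 19.4% of those of genes that rose and in 16.8% of those of genes that fell. The windows of *RAB25* (chr1:156060910-156061209, plus strand), *DSP* (chr6:7541421-7541720, plus strand) and *DSC2* (chr18:31102372-31102671, minus strand) are shown 5′ to 3′ as examples from an epithelial regulator and 2 desmosome genes, with the hexamer or its complement CAGGTG in capitals.

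RAB25: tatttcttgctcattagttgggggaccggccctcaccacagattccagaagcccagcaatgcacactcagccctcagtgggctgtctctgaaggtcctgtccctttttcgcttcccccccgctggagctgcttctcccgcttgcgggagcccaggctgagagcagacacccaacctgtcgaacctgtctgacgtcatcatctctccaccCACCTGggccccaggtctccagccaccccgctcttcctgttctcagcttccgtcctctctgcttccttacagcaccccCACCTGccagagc
DSP: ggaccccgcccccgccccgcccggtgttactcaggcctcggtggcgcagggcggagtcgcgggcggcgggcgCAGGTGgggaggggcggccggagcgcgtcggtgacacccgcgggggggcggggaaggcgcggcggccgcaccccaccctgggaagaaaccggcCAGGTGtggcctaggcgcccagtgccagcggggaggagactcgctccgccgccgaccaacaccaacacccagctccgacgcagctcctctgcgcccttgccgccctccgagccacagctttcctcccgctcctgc
DSC2: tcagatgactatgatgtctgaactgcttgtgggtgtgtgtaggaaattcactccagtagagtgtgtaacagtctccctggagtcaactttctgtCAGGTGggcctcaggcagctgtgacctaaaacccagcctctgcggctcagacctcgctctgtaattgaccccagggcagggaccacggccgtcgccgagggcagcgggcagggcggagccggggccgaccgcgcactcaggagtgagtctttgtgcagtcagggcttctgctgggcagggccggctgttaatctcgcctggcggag

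The copies begin at -41 and 38 from the start in *RAB25*, at -178 and -85 in *DSP* and at -156 in *DSC2*. *RAB25*, a small GTPase of epithelial recycling endosomes, was at 45.4 and 47.8 CPM in WT and at 2.83 and 3.53 CPM in the libraries labelled *ERF* KD (log2 fold change -3.87, SE 0.217, adjusted p = 5.38e-05).

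Of 19 receptor tyrosine kinases tested, 1 rose and 3 fell (21.1% called, against 10.1% of all genes, and a median of 0.00). *AXL* was at 626 and 606 CPM in WT and at 996 and 1078 CPM in the libraries labelled *ERF* KD (log2 fold change 0.75, adjusted p = 0.00941), and *FGFR2* at 19.7 and 15.2 CPM and at 2.4 and 0.546 CPM (log2 fold change -3.55, adjusted p = 0.0135). The epidermal growth factor receptor *EGFR* overlapped between the groups, at 794 and 852 CPM in WT and 644 and 987 CPM in the libraries labelled *ERF* KD. Of its 7 ligands and relatives tested 6 had log2 fold changes below 0 (median -0.81), and their summed level was 199 and 317 TPM in WT and 59.9 and 150 TPM in the libraries labelled *ERF* KD. None of the 6 passed, while 3 fell with the block. The one call of the 7 (14.3%, against 10.1% of all genes) was *NRG1*, which rose. It was at 1.8 and 3.87 CPM in WT and 8.6 and 7.7 CPM in the libraries labelled *ERF* KD (adjusted p = 0.0335). *FGFR3* and the collagen receptor *DDR1* fell by 1.52 and by 1.07 on the log2 scale. Calls were lost without WT replicate A for *FGFR2* (adjusted p = 0.0518), without either WT library or *ERF* KD replicate B for *AXL* (up to 0.0908), without either WT library for *DDR1* (up to 0.0663), without any 1 library for *FGFR3* (up to 0.171), and without WT replicate A or either labelled *ERF* KD library for *NRG1* (up to 0.173).

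WNT genes changed in both directions, with 3 of 23 higher and 5 lower (34.8% called, against 10.1% of all genes, and a median of 0.12). Of the ligands, *WNT10A* was at 30.1 and 28.1 CPM in WT and at 2.02 and 0.944 CPM in the libraries labelled *ERF* KD (log2 fold change -4.29, adjusted p = 0.000139). *WNT7B* was at 31.5 and 29.1 CPM and at 3.03 and 3.87 CPM (log2 fold change -3.13, adjusted p = 0.000164), and *WNT7A* at 7.79 and 10.7 CPM and at 0.432 and 0.397 CPM (log2 fold change -4.46, adjusted p = 0.000166). All 3 ligands were clear of the WT range and kept the call without any 1 library. *FZD2*, a receptor, was at 74.8 and 72.6 CPM in WT and at 165 and 142 CPM in the libraries labelled *ERF* KD (log2 fold change 1.06, adjusted p = 0.00161). The ligand *WNT5B* rose by 1.15 on the log2 scale and the antagonist *DKK1* by 1.54. *WNT5B* lost its call without WT replicate A or *ERF* KD replicate B (adjusted p up to 0.1) and *DKK1* without either WT library or *ERF* KD replicate B (up to 0.155).

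TGF-beta and BMP genes gave 3 of 17 higher and 2 lower (29.4% called, against 10.1% of all genes, and a median of 0.12). *TGFBR1*, the type I receptor, was at 104 and 121 CPM in WT and at 324 and 234 CPM in the libraries labelled *ERF* KD (log2 fold change 1.31, adjusted p = 0.00716, and 0.0668 without WT replicate A). *TGFB1*, the ligand, was at 58.4 and 71.8 CPM and at 113 and 95.3 CPM (log2 fold change 0.68, adjusted p = 0.0238, lost without either WT library or *ERF* KD replicate A, up to 0.21). *ID4*, an inhibitor of basic helix-loop-helix factors, was at 19.4 and 16.8 CPM and at 0.961 and 1.59 CPM (log2 fold change -3.83, adjusted p = 0.000142). The WT and labelled *ERF* KD libraries of these genes did not overlap. The remaining calls of the list were *TGFB3*, which rose, and *TGFBI*, which fell. *TGFB3* lost its call without either WT library or *ERF* KD replicate B, and *TGFBI* without WT replicate B or either labelled *ERF* KD library. Both were also lost in the fit of only WT and the libraries labelled *ERF* KD. *SMAD7*, *SMAD6*, *BAMBI* and *SKIL*, known targets of the pathways, did not pass (log2 fold changes -0.11, 0.41, 0.42 and 0.59).

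Of 13 NOTCH genes tested, 1 rose and 3 fell (30.8% called, against 10.1% of all genes, and a median of -0.59). Each of the 4 calls was lost without 3 or more of the 4 libraries. The ligand *JAG2* was at 157 and 159 CPM in WT and at 104 and 73.3 CPM in the libraries labelled *ERF* KD (log2 fold change -0.84, adjusted p = 0.0252, lost without either WT library or *ERF* KD replicate B, up to 0.116). Of 13 AP-1 and immediate early genes, 2 fell and none rose (15.4% called, against 10.1% of all genes, and a median of -0.24). *JUNB* was at 49.9 and 64.7 CPM and at 21.9 and 16.5 CPM (log2 fold change -1.58, adjusted p = 0.00164). *EGR1*, an early target of ERK, was at 49 and 46.1 CPM and at 10.3 and 10.4 CPM (log2 fold change -2.20, adjusted p = 0.0123, lost without either labelled *ERF* KD library, up to 0.0639). Libraries of the groups were separate for both. *FOSL1*, higher in both libraries labelled *ERF* KD than in both WT libraries, passed only with the block (adjusted p = 0.0628 without and 0.00218 with it).

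**Figure D4:**
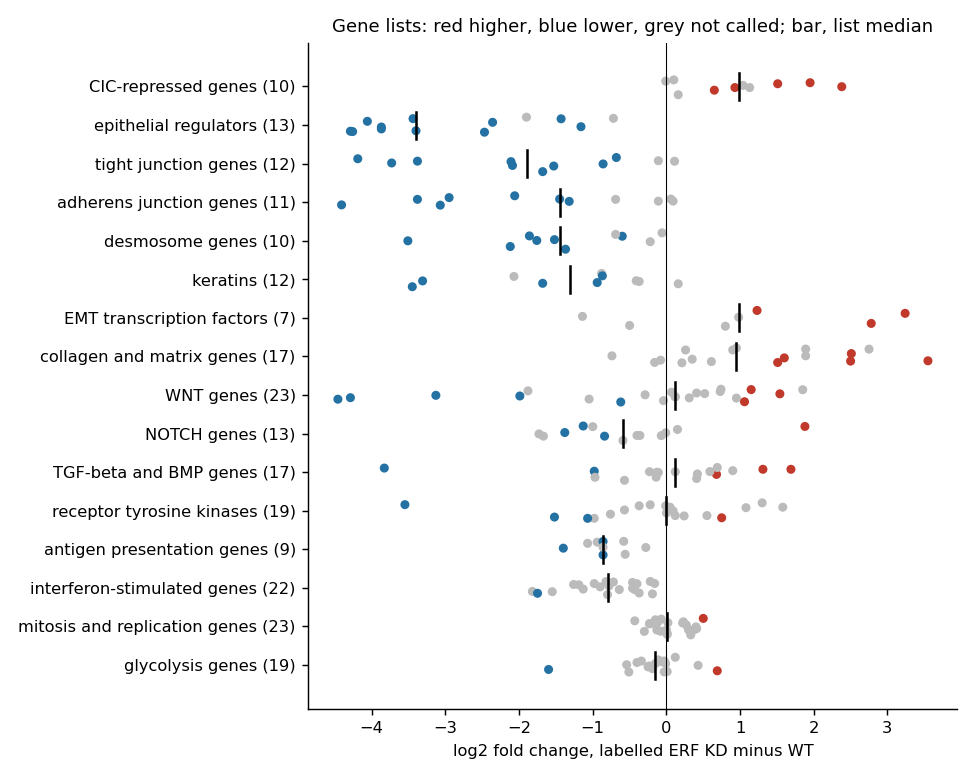
Log2 fold change of the libraries labelled *ERF* KD over WT for each tested member of 16 gene lists (points, 1 gene each; members with both libraries of a group at 3 counts or under are not drawn), with a bar at the median over all tested members of the list. The epithelial regulators have the lowest median at -3.40, the junction lists follow, and mitosis genes lie near 0.

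All 22 interferon-stimulated genes had log2 fold changes below 0 (median -0.79), and 2 passed (9.1%, against 6.07% of all genes tested that fell). With the replicate block 4 of the 22 fell, and 13 with no filter on low counts. For 11 of the 22 both libraries labelled *ERF* KD were below both WT libraries, against 28% of all genes tested. The size of the decrease differed widely between the replicates for some genes. *MX1*, an antiviral GTPase, was at 279 and 418 CPM in WT, at 251 CPM in *ERF* KD replicate A and at 40.1 CPM in *ERF* KD replicate B. *IFITM1* was at 82.5 and 82.7 CPM in WT, at 139 CPM in *ERF* KD replicate A and at 5.71 CPM in replicate B. *IFI6* was at 667 and 753 CPM in WT, at 578 CPM in replicate A and at 72.3 CPM in replicate B. For *IFITM1* replicate A of the libraries labelled *ERF* KD was above WT and replicate B below it. *IRF7*, the factor that amplifies the interferon response, passed, at 28.1 and 36.9 CPM in WT and 13.2 and 6.11 CPM in the libraries labelled *ERF* KD (log2 fold change -1.75, adjusted p = 0.0362). *IFI27* was at 1.19 and 0.561 CPM in WT and at 3 counts or under in both libraries labelled *ERF* KD, at least 5.96-fold lower, a call that was lost without any 1 library (adjusted p up to 0.249). Without *ERF* KD replicate B none of the 22 was called and the median was -0.43, none was called without WT replicate B, and *IRF7* also lost its call without WT replicate A (adjusted p up to 0.148). Replicate B was also the lower one of *ERF* KD + *CIC* KO, where *MX1* was at 709 and 109 CPM.

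**Figure D5:**
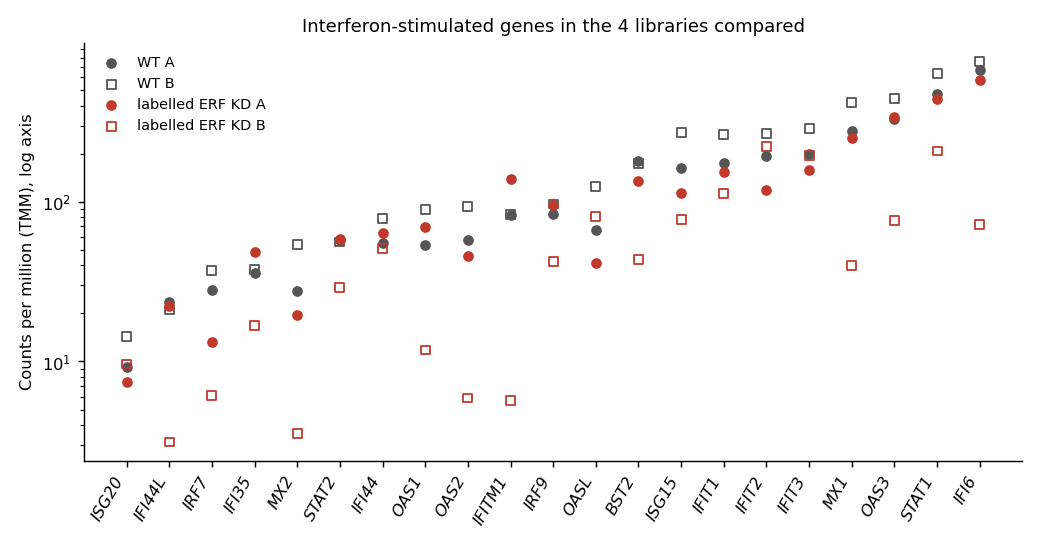
CPM on a log axis of 21 interferon-stimulated genes in the 2 WT libraries and the 2 libraries labelled *ERF* KD (points, 1 library each); *IFI27*, at 3 counts or under in both libraries labelled *ERF* KD, is not drawn. For *MX1*, *IFITM1* and *IFI6* replicate B of the libraries labelled *ERF* KD lies far below replicate A, which is near WT.

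Antigen presentation genes gave 3 of 9 lower and none higher (33.3% called, against 10.1% of all genes, and a median of -0.86). *HLA-B* was at 453 and 461 CPM in WT and at 225 and 122 CPM in the libraries labelled *ERF* KD (log2 fold change -1.40, adjusted p = 0.0378). *TAP2* and *TAPBP*, of the peptide loading complex, each fell by 0.86 on the log2 scale. Reads of HLA genes are shared between near-identical copies, so their division is uncertain. None of the 3 calls remained without WT replicate A, WT replicate B or *ERF* KD replicate B (adjusted p up to 0.149 for *HLA-B*, 0.157 for *TAP2* and 0.107 for *TAPBP*). Replicate B was the lower of the libraries labelled *ERF* KD for these 3 genes, as for the interferon-stimulated genes above, whose part in this result was not tested.

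Of 16 inflammatory cytokines 13 had log2 fold changes above 0 (median 0.91), but none rose and 1 fell, a share of 6.2% against 10.1% of all genes. With the replicate block 3 rose and 3 fell, and 6 rose and 3 fell with no filter on low counts. The gene that fell was *CCL5*, at 7.5 and 10.1 CPM in WT and 0.865 and 0.944 CPM in the libraries labelled *ERF* KD (log2 fold change -3.27, adjusted p = 0.00993, lost without WT replicate B or either labelled *ERF* KD library, up to 0.0558). *IL1B* was at 3 counts or under in both WT libraries and at 4.27 and 5.86 CPM in the libraries labelled *ERF* KD, at least 34.3-fold higher, and passed only with the block (adjusted p = 0.0532 without and 0.03 with it). In the libraries labelled *CIC* KO it was at 0.093 CPM in replicate A and 6.16 CPM in replicate B.

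S100 genes, calcium-binding proteins many of which are made by stressed or differentiating epithelium, gave 4 of 11 lower and none higher (median -0.49). The share called was 36.4%, against 10.1% of all genes. *S100A14* was at 12.4 and 9.23 CPM in WT and at 0.528 and 0.546 CPM in the libraries labelled *ERF* KD (log2 fold change -4.32, adjusted p = 0.000844). *S100A9*, at 2.9 and 5.2 CPM in WT, and *S100P*, at 2.23 and 4.74 CPM, were at 3 counts or under in both libraries labelled *ERF* KD, at least 27.6-fold and 23.8-fold lower. *S100A10*, which is expressed in many cell types, was at 234 and 259 CPM and at 172 and 142 CPM (adjusted p = 0.0295, lost without either WT library or *ERF* KD replicate B, up to 0.183), and *S100A6* overlapped between the groups.

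Of 23 mitosis and replication genes tested, 1 rose (4.3%, against 4.01% of all genes) and none fell (median 0.01), with the one call, *CCNA2* (log2 fold change 0.50, adjusted p = 0.0423), lost without any 1 library (up to 0.244). *MKI67*, the proliferation marker Ki-67, was at 464 and 361 CPM in WT and at 359 and 397 CPM in the libraries labelled *ERF* KD, which overlapped. Of 15 G1 cyclins and CDK inhibitors, 2 fell and none rose (13.3% called, against 10.1% of all genes, and a median of -0.09). *CCND2*, which encodes cyclin D2, was at 193 and 223 CPM and at 15.2 and 42.7 CPM (log2 fold change -2.84, adjusted p = 0.00703), while the more abundant *CCND1* was at 704 and 747 CPM and at 763 and 929 CPM (log2 fold change 0.22, adjusted p = 0.533). *CDKN1A*, which encodes p21, was at 103 and 180 CPM and at 27.9 and 46.4 CPM (log2 fold change -1.93, adjusted p = 0.021, lost without WT replicate B or *ERF* KD replicate A, up to 0.108). *CDKN1A* was also low in *ERF* KD + *CIC* KO, at 46.9 and 97.3 CPM, and the difference between the 2 lines did not pass (adjusted p = 0.172).

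Glycolysis genes gave 1 of 19 higher (*PFKP*, log2 fold change 0.69) and 1 lower (*SLC2A3*, which encodes a glucose transporter, -1.60), and sterol synthesis genes 1 of 18 lower (*MSMO1*, -1.14). These shares, 10.5% and 5.6%, stand beside 10.1% of all genes. All 3 calls were lost without 3 or more of the 4 libraries. Of 13 hypoxia-response genes, 1 rose and 3 fell (30.8% called, against 10.1% of all genes, and a median of -0.34). *VEGFA*, the angiogenic factor, was at 140 and 137 CPM in WT and at 69.1 and 66.7 CPM in the libraries labelled *ERF* KD (log2 fold change -1.03, adjusted p = 0.00334). *EGLN3*, an oxygen-sensing prolyl hydroxylase, was at 10.1 and 12.4 CPM and at 1.49 and 1.24 CPM (log2 fold change -3.04, adjusted p = 0.00071). Both kept the call without any 1 library and had groups that did not overlap, whereas *ADM*, which rose, and *DDIT4*, which fell, lost it without any 1 library (adjusted p up to 0.249 and 0.238).

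The marker lists were read for the labelled cell type and for others. The epithelial markers *CDH1*, *EPCAM*, *KRT5*, *KRT8*, *KRT18*, *KRT19*, *CLDN7* and *ESRP1* were all present in WT, at 123 CPM or more in each library. In the libraries labelled *ERF* KD *CDH1*, *KRT5*, *CLDN7* and *ESRP1* were under 20 CPM. The others stayed higher there, with *EPCAM* at 41.1 and 29.4 CPM, *KRT18* at 533 and 608 CPM and *KRT19* at 344 and 521 CPM. *KRT8*, given above, also stayed abundant. None of 6 endothelial and 5 leukocyte markers tested changed in either direction, and *CD3D* and *MS4A1* had no counts in these 4 libraries. Of 6 fibroblast markers tested *COL3A1* rose and none fell, with *LUM* at no counts and *DCN* at 10 counts or fewer in each of the 4 libraries. The summed level of the fibroblast markers overlapped between the groups, at 50 and 40.9 TPM in WT and 56.4 and 31 TPM in the libraries labelled *ERF* KD. Of 6 prostate luminal genes tested *TMPRSS2* fell (8.26 and 3.93 CPM in WT, 0.384 and 0.546 CPM in the libraries labelled *ERF* KD, adjusted p = 0.00342, lost with length-scaled counts and with limma on TPM), and *KLK2* and *KLK3* were too low to test. Of 10 neuronal genes tested 2 rose, *POU3F2* and *UCHL1* (a call lost without any 1 library, adjusted p up to 0.24), and none fell. The shares called, 16.7% of the fibroblast and of the luminal genes and 20.0% of the neuronal genes, stand beside 10.1% of all genes. In bulk RNA a lower level per cell and fewer cells with the transcript cannot be told apart.

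The 12 largest increases were taken among called protein-coding genes without overlap that reached a mean of 10 CPM. *POU3F2* (chr6:98834592-98839470, plus strand), a POU factor of neural development, was at 0.19 and 0.204 CPM in WT and at 15.5 and 15.4 CPM in the libraries labelled *ERF* KD, 76.2-fold higher (log2 fold change 6.25, adjusted p = 0.000789). *CD180*, a Toll-like receptor homolog of B cells, was at 0.427 and 0.51 CPM and at 31.5 and 36.8 CPM (log2 fold change 6.17, adjusted p = 0.000164), and *GABRA3*, a subunit of the GABA-A receptor, at 0.807 and 0.918 CPM and at 29.5 and 31.1 CPM (log2 fold change 5.13, adjusted p = 3.47e-05). Replicates of these 3 genes lay close together and far above WT. *PMP22*, a myelin protein, rose from 0.902 and 0.408 CPM to 37.6 and 21.7 CPM (log2 fold change 5.48, adjusted p = 0.00138). *RGS4*, a regulator of G-protein signalling, rose from 1.57 and 2.7 CPM to 27.4 and 60.1 CPM (log2 fold change 4.36, adjusted p = 0.00158). *COL11A1*, a fibrillar collagen of cartilage, rose from 1.28 and 0.714 CPM to 79.8 and 16 CPM, with replicate A well above replicate B (log2 fold change 5.57, adjusted p = 0.00616). The amino acid transporter gene *SLC38A4*, the volume-regulated channel subunit *LRRC8C*, the matrix genes *EDIL3* and *SPP1*, the pentraxin *PTX3* and *KCNIP1* completed the 12, with log2 fold changes from 3.60 for *EDIL3* to 4.13 for *SLC38A4*. The calls of *PTX3* (without either WT library, adjusted p up to 0.0819), *SPP1* (without either WT library or *ERF* KD replicate B, up to 0.105) and *KCNIP1* (without either WT library or *ERF* KD replicate A, up to 0.192) rested on single libraries.

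The 12 largest decreases included secreted and barrier proteins of epithelium. *SLPI*, a secreted protease inhibitor of mucosal surfaces, was at 22.8 and 28.3 CPM in WT and at 0.336 and 0.497 CPM in the libraries labelled *ERF* KD, 60.6-fold lower (log2 fold change -5.92, SE 0.284, adjusted p = 3.47e-05). *KLK7*, a kallikrein protease of the epidermis, was at 17.7 and 26.8 CPM and at 0.432 and 0.497 CPM (log2 fold change -5.56, adjusted p = 0.000114), and its relative *KLK6* at 64.3 and 96.8 CPM and at 2.26 and 4.97 CPM (log2 fold change -4.48, adjusted p = 0.000183). *SCEL*, which encodes sciellin of the cornified envelope, was at 21.1 and 19.2 CPM and at 0.72 and 0.596 CPM (log2 fold change -4.92, adjusted p = 0.000314). The groups of these genes stood far apart. *TRIM29*, *PPP1R14C*, *MDFI*, *RGL3*, *C1orf116* and *ACOXL* fell by log2 fold changes of -5.15, -5.08, -4.88, -4.87, -4.70 and -4.52, and the calls of these 6 remained without any 1 library. *TENM3* and *CYP24A1*, the vitamin D hydroxylase, fell by 5.78 and by 5.42 on the log2 scale, from 18.3 and 14.5 CPM to 0.288 and 0.298 CPM and from 19.9 and 9.89 CPM to 0.336 and 0.348 CPM. *TENM3* lost its call without either labelled *ERF* KD library (adjusted p up to 0.0518) and *CYP24A1* without WT replicate A or either labelled *ERF* KD library (up to 0.0853). Both were also low in *ERF* KD + *CIC* KO, at 0.127 and 1.13 CPM for *TENM3* and at 0.212 and 1.18 CPM for *CYP24A1*, and did not differ detectably from the libraries labelled *ERF* KD (adjusted p = 0.626 and 0.679). In the libraries labelled *CIC* KO *TENM3* was at 4.42 and 0.914 CPM and *CYP24A1* at 8.6 and 1.2 CPM, and neither difference from the libraries labelled *ERF* KD passed (adjusted p = 0.088 and 0.0627).

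TPM, a level corrected for transcript length, allows genes to be compared. Among called protein-coding genes without overlap and with a mean of at least 10 CPM, *VIM* gained the most TPM. It went from a mean of 133 TPM in WT to 1438 TPM in the libraries labelled *ERF* KD. *RANBP1*, a regulator of nuclear transport, went from 516 to 902 TPM, *ANXA5*, a phospholipid-binding annexin, from 261 to 591 TPM, the matrix protein gene *EFEMP1* from 210 to 493 TPM, and *IGFBP4*, which binds insulin-like growth factors, from 66.6 to 367 TPM. The *RANBP1* call was lost without either WT library or *ERF* KD replicate B (adjusted p up to 0.123) and that of *ANXA5* without WT replicate A (0.0742). *RANBP1* was as high in *ERF* KD + *CIC* KO (443 and 470 CPM against 443 and 506 CPM, adjusted p = 0.857 for the difference). Among these called genes the largest losses in TPM were of *KRT18* (1101 to 589 TPM), *KRT19* (971 to 499 TPM), *FN1* (714 to 363 TPM), *SPINT2*, an inhibitor of epithelial serine proteases (526 to 180 TPM), and *KLK5* (350 to 17.6 TPM). Genes that were not called, such as *KRT8*, were not ranked. *KLK5* (chr19:50943303-50953093, minus strand), a kallikrein that activates other kallikreins, was at 290 and 379 CPM in WT and at 11 and 23.3 CPM in the libraries labelled *ERF* KD, without overlap, 19.5-fold lower (log2 fold change -4.29, adjusted p = 0.000292). The *KRT18* and *KRT19* calls were lost without either WT library or *ERF* KD replicate A (adjusted p up to 0.109 and 0.235).

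The study lists 91 genes as shared targets of *CIC* and *ERF*, of which 76 had counts and 58 were tested. Of these 9 rose and 3 fell (20.7% called, against 10.1% of all genes), and their median log2 fold change of 0.08 was near that of all genes (0.01). The genes that rose were *ETV1*, *ETV4*, *ETV5* and *SPRED1*, described above, and *ZFHX4*, *JAZF1*, *NFIB*, *ELAVL2* and *HS1BP3*, named after their values were seen. *JAZF1*, a zinc finger factor, was at 10.4 and 11.2 CPM in WT and at 26 and 24.6 CPM in the libraries labelled *ERF* KD (log2 fold change 1.23, adjusted p = 0.0069, and 0.0675 without WT replicate A), with the groups apart. *IL20RA*, a cytokine receptor subunit, was at 4.65 and 5.91 CPM in WT and at 3 counts or under in both libraries labelled *ERF* KD, at least 36.1-fold lower. *CREG2* was at 50.3 and 63.1 CPM and at 11 and 17.8 CPM (log2 fold change -1.98, adjusted p = 0.00169), and the pseudogene *CCT6P3*, which may share reads with its parent gene, fell as well. The calls of *ZFHX4*, *NFIB*, *ELAVL2*, *HS1BP3* and *CCT6P3* were each lost without 2 or more single libraries. Those of *ZFHX4*, *NFIB* and *ELAVL2* were also lost with limma on TPM. That of *ZFHX4* was lost with length-scaled counts as well, and that of *ELAVL2* in the fit of only WT and the libraries labelled *ERF* KD.

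Whether these changes were particular to the libraries labelled *ERF* KD was asked with direct tests against the other lines, which share the fit. Of the 1477 genes called against WT, 1085 differed in the same direction from the libraries labelled *CIC* KO and 1026 from *ERF* KD + *CIC* KO, and none differed in the opposite direction. The same libraries labelled *ERF* KD stand in all 3 contrasts, so these counts are not independent of the calls. For *CDH1* the other lines stayed near WT, at 341 and 297 CPM in the libraries labelled *CIC* KO and 258 and 273 CPM in *ERF* KD + *CIC* KO, and the log2 differences from them were -4.18 and -3.92 (adjusted p = 1.39e-05 and 1.78e-05). Of the PEA3 genes *ETV1* differed from *ERF* KD + *CIC* KO, where it was at 19.5 and 22.4 CPM (log2 difference 1.52, adjusted p = 0.00215). The differences of *ETV4*, at 61.8 and 62.8 CPM there (log2 difference -0.10, adjusted p = 0.82), and of *ETV5*, at 66.5 and 55.4 CPM (0.65, adjusted p = 0.0621, and 0.0361 with the replicate block), did not pass without the block.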

How the data were processed

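RNA was extracted from PNT2 cells, and a company made and sequenced the libraries. Per the file headers, the authors deposited for each library estimated counts per transcript, not normalized, and TPM, which they scaled to the same total in each library, in kallisto's columns. The version, index and annotation are not given in the sources used here, and the study's methods name RSEM instead. The submitters' processing notes name hg19.

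The 180253 transcripts of each file were matched by identifier to GENCODE 29 (GRCh38), which held 153245 (85.0%). Estimated counts of a gene's transcripts were added up (33791 genes) and rounded to whole numbers, with 93.2 to 93.3% of counts on genes. Totals ran from 19477473 to 25813157 per library, and 3 counts, taken as the floor of detection in a library, were 0.148 CPM in WT and 0.147 CPM in the libraries labelled *ERF* KD. The floor covers counting error only. Coordinates are those of GENCODE 29 and were not converted. kallisto divides reads between near-identical transcripts, and strandedness was not stated, so overlapping and duplicated genes are less certain.

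After filterByExpr and TMM scaling, edgeR's quasi-likelihood test (edgeR 4.0.16, R 4.3.3) was run in a single fit of 4 groups, with Benjamini-Hochberg adjustment over 14653 genes. A gene was called at an adjusted p under 0.05. With 2 libraries a group, an exact permutation test gives p = 0.333 at the least and was not used. No 2 replicates were one library deposited again, since their counts differed beyond sampling (chi-square/df 21.5 to 43.1). Deviations of A and B correlated between groups at 0.136 to 0.335 for the 6 pairs of groups, every one above 0.1, which was read as pairing, and a replicate block was fitted as an alternative (biological coefficient of variation 0.197, and 0.142 with the block). Other alternatives were DESeq2 1.42.0, no filter, only WT and the libraries labelled *ERF* KD, length-scaled counts, limma 3.58.1 on log2(TPM + 1) and log2(TPM + 0.1), and each library left out in turn, where a lone library is assumed to vary like the other groups.

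The comparison, the 33 gene lists and the tests were chosen with earlier results of these data known. Named genes were *ERF*, *CIC* and the PEA3 genes. From called protein-coding genes without overlap and with a mean of at least 10 CPM, the 12 largest changes in each direction and the 5 largest differences in TPM were named, and up to 4 called members of each list in each direction. *GRHL2*, *ST14*, *JUP*, *SPRED1*, *FBN1* and further called list members were named after their values were seen. Lists are described by counts and medians, with no set test. Some list members are not reported here by name. Promoter windows are RefSeq sequences of GRCh38.p14, matched by symbol. Only the first window of each symbol was searched (27305 of 35116), so other starts of a gene were not.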

Additional observations from a re-analysis of the deposited data

Results flagged for a closer look

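The change of 4 genes of the study differed between the single-loss lines, in the direct test of the libraries labelled *ERF* KD against those labelled *CIC* KO in the fit of all 8 libraries. *ERF* was higher in the libraries labelled *ERF* KD by 2.38 on the log2 scale (SE 0.214, adjusted p = 0.000393), with both of these libraries above both labelled *CIC* KO libraries. *ETV1* was higher by 2.37 (SE 0.201, adjusted p = 0.00028), *ETV5* by 1.53 (SE 0.194, adjusted p = 0.00214) and *ETV4* by 1.29 (SE 0.211, adjusted p = 0.00723). File names carry the opposite letters to the labels for both groups, and an exchange of the labels would turn the sign of these 4 differences. Whether the labels or the file names are right was not tested.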

How the results depend on the processing

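The count of called genes rose with the replicate block (2671, of which 1230 higher and 1441 lower) and with no filter on low counts (2577, 1105 and 1472). limma on log2(TPM + 1) and log2(TPM + 0.1) called 385 and 372 genes higher. Leaving out 1 library gave 620 to 963 genes in all, 152 to 375 higher and 463 to 622 lower. DESeq2 called 2000, the fit of only these 4 libraries 1294, length-scaled counts 1181 and limma 1032 and 1094, within 1.5 times of 1477. The block used the letters as pairing. Of the 125 named genes called, none reversed under any alternative, 94 kept their call under every alternative that kept all libraries, 125 with the replicate block, and 61 under every alternative run. The fewest kept were 76, without WT replicate B. *ERF* and *CIC* kept their direction and side of the threshold in both contrasts throughout, with *ERF* against WT between 0.26 and 0.54 on the log2 scale. With 2 libraries a group, precision rests on the spread shared by the 4 groups. Depth limits genes near the floor of 3 counts a library.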
